A study of Homo sapiens with 15 samples.

Results

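The WT10 series followed a single clone of brain metastatic breast cancer cells as wild type RBM47 was switched on by increasing concentrations of doxycycline. WT10 was 1 of 3 clones in the study, and its 5 RNA-seq libraries of the 15 sequenced were chosen by their labels alone: untreated cells and cells given 1, 2.5, 5 or 25 ng/ml doxycycline, with 1 library at each concentration. By the study's methods, WT10 was grown from a single sorted cell of the 231-BrM2 line, a brain metastatic derivative of the triple negative breast cancer line MDA-MB-231, after retroviral transfer of a doxycycline-responsive FLAG-RBM47 cDNA; the untreated WT10 cells carry the same construct. MUT3, also a 231-BrM2 clone, carried the truncated RBM47-I281fs cDNA, and WT6 carried wild type RBM47 in the CN34-BrM2 line by the methods, although its label reads MDA231 like the others. MUT3 and WT6 were treated at the same concentrations, again with 1 library each, and serve below only for comparison. The time of doxycycline exposure before RNA collection was not found in the sources used here.

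RBM47 is an RNA-binding protein with RNA recognition motifs, expressed in epithelia, and it is a cofactor of the APOBEC1 cytidine deaminase that edits apolipoprotein B mRNA. Proteins of this kind bind many transcripts and can alter their splicing, stability or editing, so that a change in the binding protein may be followed by changes in many mRNAs, direct or secondary. MDA-MB-231 cells are a mesenchymal-like, basal B breast cancer line in which NF-kB signalling and inflammatory cytokines are active, which is the setting for the cytokine values below.

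Between 17193616 and 44771871 reads fell on genes in each WT10 library, with a median of 18056789 and the deepest library at 5 ng/ml, and 3 reads corresponded to a normalized count of 1.19 to 3.25. The defining markers of the line were present: the 10 basal B genes examined, among them VIM, CD44, EGFR and AXL, had a lowest peak value of 2343. Markers of cell types other than epithelium were mostly low: 3 of 4 endothelial, 4 of 5 fibroblast, 6 of 7 haematopoietic and 2 of 5 neural genes stayed under 10 in all 5 libraries, and COL1A2, LUM, CD3E, HBB and OLIG2 had no read. The exceptions were KDR (112 to 145), CD14 (15.5 to 29.9), GFAP, SYP and SOX2 (each with a highest value between 11.6 and 23.8) and COL1A1, a collagen also used as a fibroblast marker, which had 300, 302, 272, 309 and 493 and rose by limma (slope 0.16, SE 0.04, adjusted p = 0.02), but not without 25 ng/ml (slope -0.0038, adjusted p = 0.97). The fibroblast genes summed to between 272 and 495, the endothelial to between 119 and 153, the haematopoietic to between 17.1 and 30.9 and the neural to between 35.8 and 58.8, and their part in the results was not tested. Luminal breast epithelial genes, taken as low in this line, were not all low. Only 1 of 8 stayed under 10 in all 5 libraries, and the 8 summed to between 1587 and 1892. Most of that was KRT19 (1286 to 1588), followed by GATA3 (170 to 213). The share of tallied reads that fell on no gene was 56.6% in untreated cells and 57.2%, 57.1%, 57.6% and 58.7% at the 4 concentrations in ascending order, and its part in the results was not tested.

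Values below are normalized counts, listed from untreated through 1, 2.5 and 5 to 25 ng/ml. The slope is the change in log2(value + 1) for each unit of log2(dose + 1), on which scale 25 ng/ml lies 4.70 units from untreated. Its standard error (SE) comes from the scatter of the 5 libraries around the line, since no concentration was replicated. That scatter was moderated across genes. The variance shared by all genes counted for 6.91 degrees of freedom and the gene's own for 3. A gene is said to rise or fall where limma's moderated test of the slope gave an adjusted p under 0.05 over all 13545 genes with a mean value of at least 10. RNA was measured in bulk cultures, so fewer expressing cells and less RNA per cell cannot be told apart.

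RBM47 rose at every step. Its normalized counts were 168, 827, 2822, 8134 and 19877, a ratio of 119 between 25 ng/ml and untreated cells, with a slope of 1.26 (SE 0.13, adjusted p = 0.000324). The gene lies on chromosome 4 at 40425284 to 40632892 (hg19, minus strand), and endogenous and introduced transcripts were not separated by the counting. Most of the increase on the log scale was in place at low concentrations, the log2 change being 2.29, 4.07, 5.59 and 6.88, with 1.29 of it between 5 and 25 ng/ml. The 3 clones had RBM47 slopes that the test did not separate, and RBM47 stood at 22084 in MUT3 and 10425 in WT6 at 25 ng/ml.

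Of the 13545 genes, 1940 (14.3%) rose and 1866 (13.8%) fell with the concentration of doxycycline, which is 28.1% in all. These shares are the background for each list count below, and the counts without 25 ng/ml are read against 13.5% rising and 18.2% falling of 13467 genes. The rising genes had a median log2 change of 0.05, 0.15, 0.30 and 0.70 at the 4 concentrations, and the falling genes had -0.06, -0.15, -0.28 and -0.53. Over all genes the median change stayed within 0.02 of 0 at each concentration while its median absolute deviation grew from 0.10 at 1 ng/ml through 0.15 and 0.19 to 0.28 at 25 ng/ml. At 25 ng/ml 651 genes (4.81%) were more than 1 log2 unit above untreated and 196 (1.45%) more than 1 below, values that have no test since each rests on 2 libraries. The excess of upward changes depends in part on the filter, whose mean includes the 25 ng/ml library. Without that library 50 rising and 0 falling genes no longer reached a mean of 10. With a mean of at least 50, the 847 genes over 1 log2 unit in either direction became 409.

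**Figure D1:**
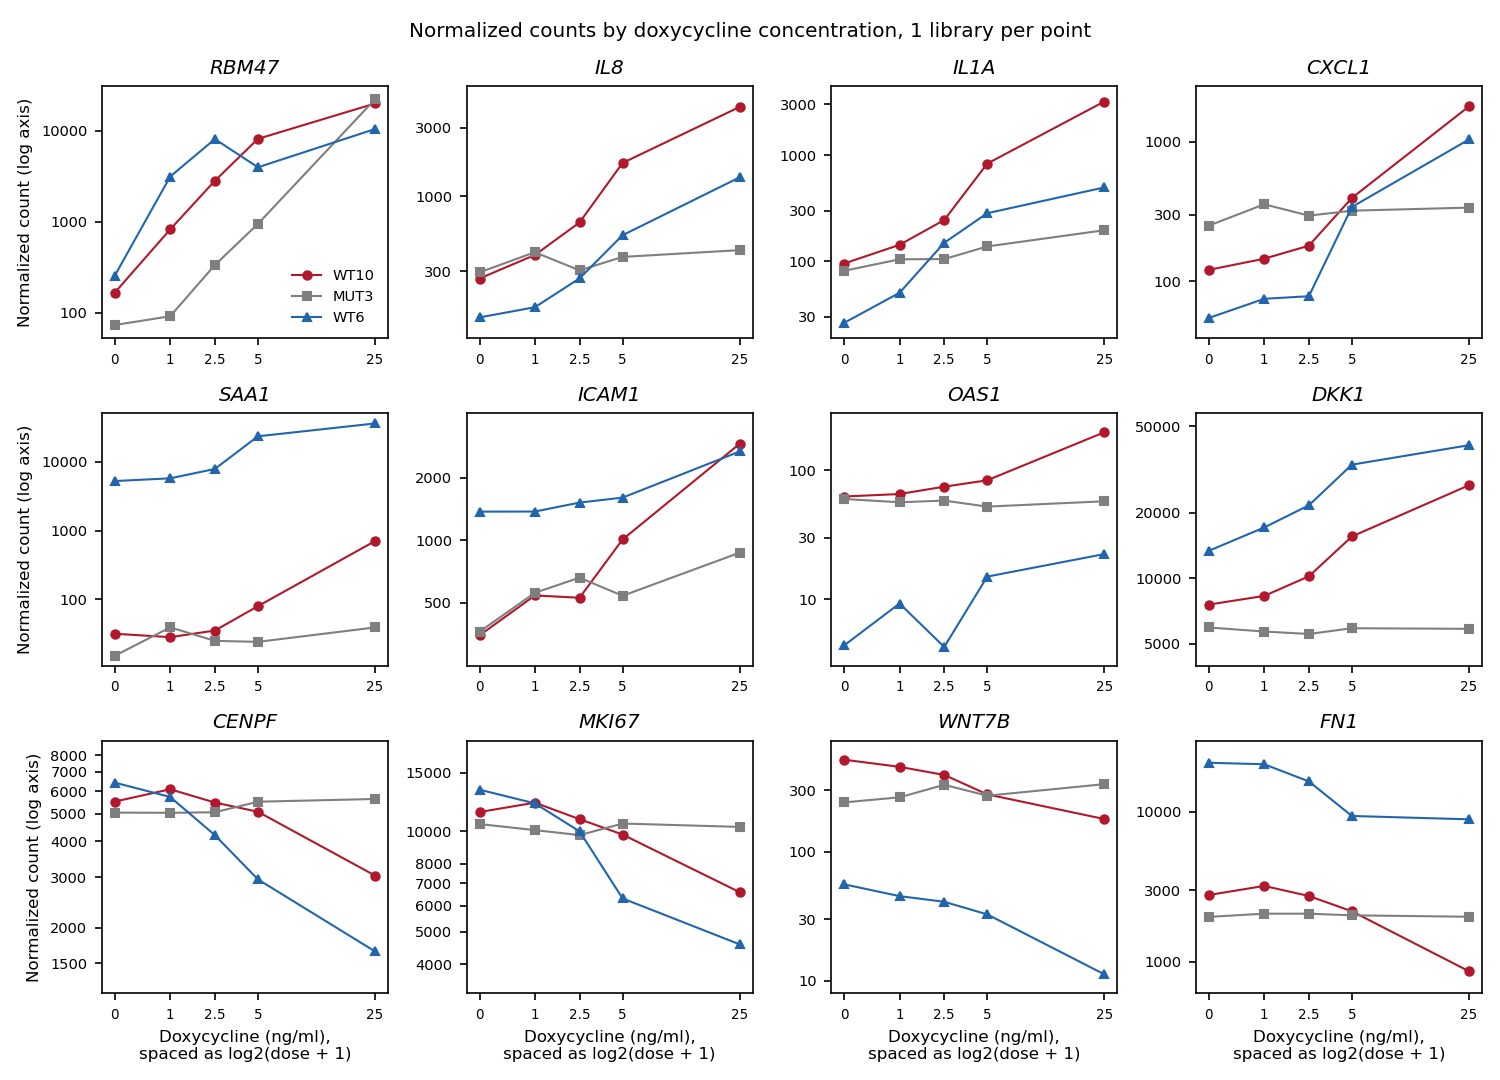
Normalized counts (vertical log axes, which differ between panels) against doxycycline concentration, spaced as log2(dose + 1), for 12 genes in WT10 (red circles), MUT3 (grey squares) and WT6 (blue triangles), with 1 library at each point. In WT10 the cytokine genes climb from untreated to 25 ng/ml (IL1A from 95.2 to 3193) while CENPF, MKI67, WNT7B and FN1 decline, and the MUT3 points of IL8 stay between 294 and 420.

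Inflammatory cytokines made up much of the top of the list. Apart from RBM47 itself, the 11 steepest rising genes with a mean of at least 100 were SAA1, IL1A, HSPB8, CXCL1, IL8, IL1B, TNFSF15, MFI2, C3, ICAM1 and PTPRR. IL1A, an alarmin that signals through the interleukin 1 receptor, had counts of 95.2, 143, 244, 831 and 3193. Its slope was 1.16 (SE 0.07, adjusted p = 4.35e-05) and its level at 25 ng/ml was 33.5 times the untreated one. IL1B, the secreted counterpart that needs cleavage by caspase 1, had 54.1, 114, 117, 328 and 894, with a slope of 0.86 (SE 0.06, adjusted p = 6.68e-05). For both genes every step was upward, and both slopes were as steep without 25 ng/ml, at 1.39 for IL1A and 0.99 for IL1B. IL18, another ligand of this family, rose less, with 256, 222, 293, 284 and 484. Its slope was 0.22 (SE 0.04) over 5 libraries and 0.10, with an adjusted p of 0.197, without 25 ng/ml. The receptor chain IL1R1 and the accessory chain IL1RAP, which complete the 5 family members tested, had slopes of 0.03 and 0.00 and did not pass the test.

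The CXCL chemokines, of which IL8, CXCL1, CXCL2 and CXCL3 attract neutrophils, rose together, with 5 of 5 tested members called against 14.3% of all genes (3 of 5 without 25 ng/ml) and a median slope of 0.58, against a median of -0.00080 over all genes. IL8 (CXCL8) had counts of 266, 389, 655, 1706 and 4198, a slope of 0.89 (SE 0.06, adjusted p = 5.82e-05) and a ratio of 15.8 at 25 ng/ml. CXCL1 had 121, 146, 181, 397 and 1798, a slope of 0.95 (SE 0.06, adjusted p = 5.82e-05) and a ratio of 14.8. Both had moved by 5 ng/ml, IL8 by 2.68 log2 units and CXCL1 by 1.70. CXCL2 went from 86.5 through 104, 127 and 174 to 490, and CXCL3 from 44.4 through 47.3, 48.9 and 64.8 to 124. CXCL16, a transmembrane chemokine that attracts T cells, had 68.2, 77.2, 92.8, 79.1 and 124, with a slope of 0.17 that kept its size but not its call when the 1 ng/ml library was left out (adjusted p = 0.0734). Without 25 ng/ml the calls of CXCL3 (slope 0.20, adjusted p = 0.178) and CXCL16 (0.10, adjusted p = 0.414) were lost. CXCL1, CXCL2 and CXCL3 are close paralogs, and how reads shared between them were counted can divide their signal. CCL26, an eosinophil chemokine of the other family, stood at 9.74, 7.72, 8.98 and 19.9 before it reached 192, so that its slope of 1.20 fell to 0.39 (adjusted p = 0.189) without the highest concentration.

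The promoters of the 4 neutrophil-attracting CXCL genes share a short element, shown here to compare the genes that carry it, which moved by very different amounts. The letters GGAATTTCC, a sequence of the kind NF-kB binds, were searched on both strands (the other strand reads GGAAATTCC) in the 300 bases that RefSeq gives around each start site, 250 before it and 50 after it. They occur in 162 of 35116 promoter windows (0.461%) and in 59 of the 10320 tested genes with a window (0.572%). All 4 CXCL genes with a window (CXCL1, CXCL2, CXCL3 and IL8) hold them, as do ICAM1 and 5 of the 11 NF-kB subunit and inhibitor genes with a window. Of the 9 steepest genes with a window 3 hold them, the same CXCL1, IL8 and ICAM1. CXCL1, CXCL2 and CXCL3 are close paralogs with nearly the same bases around the match, so their matches are not independent. Among 30 G2/M and mitosis genes 0 hold them, and among 17 interferon-stimulated genes 1 does. The motif was chosen with the values known, a match is a description and not a binding site, and nothing about the factor follows from a missing match. The 30 bases around the match are given 5′ to 3′ on the strand of the gene, from RefSeq on GRCh38.p14, with the motif in capitals.
IL8 (CXCL8), chr4:73740468-73740497, plus strand, motif starting 91 bases before the start site: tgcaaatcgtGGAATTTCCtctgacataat
CXCL1, chr4:73869305-73869334, plus strand, motif starting 78 bases before: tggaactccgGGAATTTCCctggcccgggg
CXCL2, chr4:74099253-74099282, minus strand, motif starting 77 bases before: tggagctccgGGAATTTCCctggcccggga
CXCL3, chr4:74038748-74038777, minus strand, motif starting 78 bases before: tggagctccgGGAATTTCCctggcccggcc
ICAM1, chr19:10270924-10270953, plus strand, motif starting 186 bases before: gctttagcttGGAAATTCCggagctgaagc
NFKBIZ, chr3:101827758-101827787, plus strand, motif starting 222 bases before: ttttggtctgGGAATTTCCagtgtgcagaa
NFKBIA, chr14:35404811-35404840, minus strand, motif starting 81 bases before: tgactggcttGGAAATTCCccgagcctgac
NFKB1, chr4:102501301-102501330, plus strand, motif starting 48 bases before: gacgtcagtgGGAATTTCCagccaggaagt
NFKBIB, chr19:38899932-38899961, plus strand, motif starting 27 bases before: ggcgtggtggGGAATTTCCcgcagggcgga
REL, chr2:60881518-60881547, plus strand, motif starting 46 bases before: gtcagccgcgGGAAATTCCcctcccgccag

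Carrying the motif did not go with a given size of change. NFKB1, NFKBIB and REL, 3 of the carriers, had slopes of -0.04, 0.02 and -0.07 and did not pass. IL8, CXCL1 and ICAM1 rose steeply, whereas NFKBIA, the inhibitor that holds NF-kB in the cytoplasm, had counts of 1316, 1484, 1432, 1543 and 1664. NFKBIA's slope was 0.07 (SE 0.02, adjusted p = 0.0458), and the call was lost when any of the other libraries than 25 ng/ml was left out: the adjusted p was 0.138 without untreated cells, 0.0935 without 1 ng/ml, 0.09 without 2.5 ng/ml and 0.0592 without 5 ng/ml, with slopes of 0.05 to 0.07. NFKBIZ, an inducible nuclear regulator of secondary NF-kB targets, rose from 264 through 321, 353 and 439 to 529.

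NF-kB pathway genes rose in part. Of the 13 subunits and feedback inhibitors tested, 7 rose, 0 fell and 6 did not pass, with a median slope of 0.07, and without 25 ng/ml 6 rose and 2 fell. All 7 are feedback regulators or a non-canonical subunit. TNFAIP3, the ubiquitin-editing enzyme that dampens the pathway, had 248, 317, 349, 431 and 776 and a slope of 0.35 (SE 0.03, adjusted p = 0.000117). TNIP1, its partner, reached 8857 from 5531, and NFKBIE reached 2331 from 1680. The subunits NFKB1, RELA and REL had slopes of -0.04, -0.02 and -0.07, none of which passed. ICAM1, the endothelial and epithelial adhesion molecule for leukocyte integrins, had 348, 542, 529, 1008 and 2909, with a slope of 0.68 (SE 0.05, adjusted p = 6.68e-05). ZC3H12A, the RNase that degrades inflammatory mRNAs, rose as well, from 241 through 274, 299 and 358 to 706.

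Of the 3 acute phase genes tested 3 rose, SAA1 and SAA2 from low starting levels. SAA2 reached the mean of 10 only through the 25 ng/ml library, so its entry and its call are not separate. Without that library 2 genes were tested, SAA1 and PTX3, and 2 rose. SAA1, a secreted acute phase protein, had 31.4, 28.0, 34.9, 79.1 and 701 and the steepest slope after RBM47 among genes with a mean of at least 100, 1.24 (SE 0.10, adjusted p = 0.00012). Between 5 and 25 ng/ml alone it increased 8.87-fold, and without 25 ng/ml its slope was 0.57. Its near-identical neighbour SAA2 went from a single read (1.08) through 3.86, 3.99 and 14.3 to 113, and reads shared between the pair make the division between them uncertain. PTX3, the third acute phase gene tested, rose from 1629 to 2654. Of the 10 complement genes tested, 7 rose and 0 fell, and 4 rose without 25 ng/ml. C3, the central component, had 43.3, 57.9, 50.9, 89.8 and 334, and C1S, a protease of the first complex, had 30.3, 45.3, 42.9, 72.3 and 304, while CFB of the alternative pathway reached 465 from 133. The membrane regulators CD46, CD55 and CD59 also rose, with slopes of 0.10, 0.08 and 0.06, whereas the inhibitor SERPING1 had a slope of -0.27 that did not pass. These 3 calls were marginal. CD46 was lost without 1 ng/ml (slope 0.10, adjusted p = 0.056), CD55 without 1 ng/ml (0.08, 0.0786) and without 25 ng/ml (0.05, 0.0664), and CD59 when any library but the 5 ng/ml one was left out, with slopes of 0.05 to 0.06 and adjusted p of 0.0534, 0.0841, 0.07 and 0.0516 without 0, 1, 2.5 and 25 ng/ml.

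Colony-stimulating factors and the interleukin 6 family split. CSF3, the granulocyte factor, had 3.25, 10.6, 11.0, 27.8 and 74.6 (slope 0.82, SE 0.08). CSF2 had 66.0, 67.5, 56.8, 93.8 and 231, and IL6 had 20.6, 14.5, 22.9, 29.8 and 89.1. In both most of the rise came between 5 and 25 ng/ml. Without 25 ng/ml their slopes of 0.15 (adjusted p = 0.267) and 0.26 (adjusted p = 0.251) did not pass. CSF1, the macrophage factor, fell in place of rising: 2162, 2170, 1770, 1569 and 1129, with a slope of -0.21 (SE 0.03, adjusted p = 0.000573). In this list of 12 tested genes 3 rose and 2 fell, and without 25 ng/ml 2 rose and 3 fell. Of the 3 tested genes of the IL7 receptor system, IL7R and the common gamma chain IL2RG rose. IL7R had 29.2, 43.4, 62.8, 108 and 228, and its slope of 0.62 was 0.75 without 25 ng/ml. IL2RG had 10.8, 16.4, 18.0, 26.6 and 101 and lost its call without 25 ng/ml (slope 0.45, adjusted p = 0.056).

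Among the other steep genes, HSPB8, a small heat shock protein that acts with BAG3 in protein clearance, went from 27.0 through 34.7, 45.9 and 87.0 to 523 (slope 1.05, SE 0.07). TNFSF15, a TNF family ligand, had 23.8, 40.5, 63.8, 92.6 and 346 and the smallest adjusted p of the 12 steepest rising genes, 2.44e-05. MFI2, the iron-binding melanotransferrin, had 188, 241, 249, 414 and 1793. PTPRR, a phosphatase acting on MAP kinases, had 97.4, 119, 152, 214 and 685. All 4 rose at each of the 4 steps, and all 4 kept an adjusted p under 0.05 without 25 ng/ml.

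Interferon-stimulated genes rose without a fall among them, chiefly at the top concentration. Of 23 tested, 13 rose, 0 fell and 10 did not pass, and 21 of the 23 were higher at 25 ng/ml than untreated. Their median log2 change was 0.11, 0.08, 0.09 and 0.68. OAS1, which makes the second messenger of the RNase L pathway, had 62.7, 65.6, 74.8, 83.8 and 198. Its slope of 0.39 (SE 0.05, adjusted p = 0.0012) became 0.17 (adjusted p = 0.174) without 25 ng/ml. IFI44 had 259, 285, 310, 371 and 645 and IFI44L had 10.8, 13.5, 29.9, 27.4 and 43.5. XAF1, which antagonises XIAP, had 77.9, 85.8, 81.8, 101 and 156 and lost its call without 25 ng/ml (slope 0.12, adjusted p = 0.298). Without that library 4 of the 23 rose and 1 fell.

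Antigen presentation genes moved by less. Of 14 MHC class I and peptide-loading genes, 7 rose and 2 fell, with a median slope of 0.07, and without 25 ng/ml 2 rose and 3 fell. HLA-E, the ligand of an inhibitory natural killer receptor, stayed between 6247 and 6740 up to 5 ng/ml and stood at 9391 at 25 ng/ml. The immunoproteasome subunits PSMB8 (2146, 2356, 2378, 2514 and 3186) and PSMB9 (634, 747, 735, 699 and 983) both had slopes of 0.12. The annotations of PSMB8 and PSMB9 overlap on opposite strands, and the default settings of HTSeq, with which reads were counted, assume libraries that keep strand; whether these did is not given in the sources used here, and if not, reads of the pair cannot be told apart. Without 25 ng/ml the slopes of HLA-E (0.03, adjusted p = 0.198) and PSMB9 (0.05, adjusted p = 0.325) did not pass. TAP2, a subunit of the peptide transporter, fell from 8113 to 5921, and NLRC5, a regulator of class I transcription, fell from 617 to 456. The call of NLRC5 was lost without the untreated library (slope -0.09, adjusted p = 0.104) and without 1 ng/ml (-0.09, adjusted p = 0.13).

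A few Wnt pathway genes moved, in both directions. DKK1, a secreted antagonist that blocks the LRP5 and LRP6 co-receptors, had counts of 7579, 8307, 10223, 15594 and 26822. Its slope was 0.42 (SE 0.03, adjusted p = 6.68e-05), it rose at every step, and the slope was 0.40 without 25 ng/ml. DKK3 had 31.4, 26.0, 35.9, 50.1 and 123, and its slope of 0.51 became 0.30 (adjusted p = 0.0927) without the highest concentration. The remaining 2 of 4 tested antagonists, the DKK receptors KREMEN1 and KREMEN2, had slopes of -0.21 and 0.19 that did not pass. Of 6 transcripts that Wnt signalling is known to induce, 0 rose and 2 fell: LEF1, a transcription factor of the pathway, had 485, 496, 429, 380 and 234, and ZNRF3, a ligase that removes Frizzled receptors, had 262, 287, 232, 215 and 137. AXIN2, the most used reporter of the pathway, had a slope of -0.16 that did not pass. Without 25 ng/ml ZNRF3 also did not pass (slope -0.12, adjusted p = 0.0772). WNT7B, a ligand, fell at every step, with 517, 455, 394, 279 and 179 and a slope of -0.34 (SE 0.04, adjusted p = 0.000308).

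Mitotic genes fell as a block. Of the 35 G2/M and mitosis genes tested 30 fell and 0 rose, 85.7% of the list against 13.8% of all genes, and the median slope was -0.13. The members' slopes ran from -0.21 to 0.10, and the 5 that did not pass were CDK1, MAD2L1, TTK, HMMR and NEK2. MKI67, the proliferation marker, had counts of 11424, 12186, 10876, 9783 and 6577 and a slope of -0.18 (SE 0.03, adjusted p = 0.00201). KIF20A, a kinesin of cytokinesis, had 4123, 4201, 3838, 3566 and 2287. CENPF, a kinetochore protein, had 5514, 6088, 5470, 5080 and 3039, and CENPE, a kinetochore motor, had 1777, 2009, 1820, 1796 and 910. In all 4 the value at 1 ng/ml was above the untreated one and the largest step down came between 5 and 25 ng/ml. CENPE was not called without 1 ng/ml (slope -0.20, adjusted p = 0.0589), and neither CENPE (slope -0.01, adjusted p = 0.877) nor CENPF (-0.05, adjusted p = 0.0824) was called without 25 ng/ml. In that fit 11 of the 35 fell and 3 rose. With the length and GC trends subtracted, 32 of 35 fell over 5 libraries and 20 of 35 without 25 ng/ml, with 0 rising in either.

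DNA replication and repair genes that passed the test over all 5 libraries fell. Of 39 G1/S and replication genes 16 fell and 0 rose, and of 23 homologous recombination and Fanconi genes 9 fell and 0 rose, which is 41.0% and 39.1% against 13.8% of all genes. Of the 39, 10 fell and 4 rose without 25 ng/ml, and of the 23, 5 fell and 2 rose. POLD1, the catalytic subunit of DNA polymerase delta, had 2410, 2147, 1925, 1743 and 1468, and LIG1, the replicative ligase, had 2200, 1992, 1820, 1692 and 1367. FEN1, which trims Okazaki fragments, went from 5592 to 3526, and RAD54L, a motor of strand exchange, from 1492 to 809. Each of the 4 fell at every step and remained past the threshold without 25 ng/ml, in a fit whose calls varied with GC content (below). With the length and GC trends subtracted, 24 of the 39 and 12 of the 23 fell over 5 libraries. Without 25 ng/ml 8 and 5 fell after the same subtraction, with 0 rising in any of these fits. Genes that restrain the cycle were mixed: of 9 tested, 2 rose (22.2% against 14.3% of all genes) and 1 fell (11.1% against 13.8%). CDKN1A (p21), which inhibits cyclin-dependent kinases, had 2607, 2587, 2964, 3506 and 5961 (slope 0.27, SE 0.03). HBP1, a transcriptional repressor, had 420, 412, 508, 600 and 810 (slope 0.22, SE 0.03), while CDKN2C fell from 1536 to 901.

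The steepest falling genes did not belong to the cell cycle. Among the 12 with a mean of at least 100 were ARC, FN1, KIRREL3, WNT7B, FRMPD4, SCARA3, IGFBP3, NUP210, KLC1, CDH4 and TAGLN. ARC, an immediate early gene named for its role at synapses, had 321, 280, 303, 223 and 47.7, a slope of -0.47 (SE 0.10, adjusted p = 0.00776), with most of the fall in the last step. FN1, which encodes fibronectin, had 2781, 3197, 2739, 2164 and 862, so that the untreated level was 3.23 times that at 25 ng/ml. IGFBP3, a binding protein for insulin-like growth factors, had 2734, 2375, 2177, 1899 and 997 and fell at every step. CDH4, or R-cadherin, had 3189, 2756, 2419, 1916 and 1262, the smallest adjusted p of the 12 (0.000107). TAGLN, a smooth muscle actin-binding protein, fell from 563 to 220 and KLC1, a kinesin light chain, from 2367 to 953. All 12 had a negative slope with an adjusted p under 0.05 without 25 ng/ml as well. The slopes there were smaller, -0.16 for ARC and -0.14 for FN1, and with the length and GC trends also subtracted ARC had -0.06 and did not pass.

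**Figure D2:**
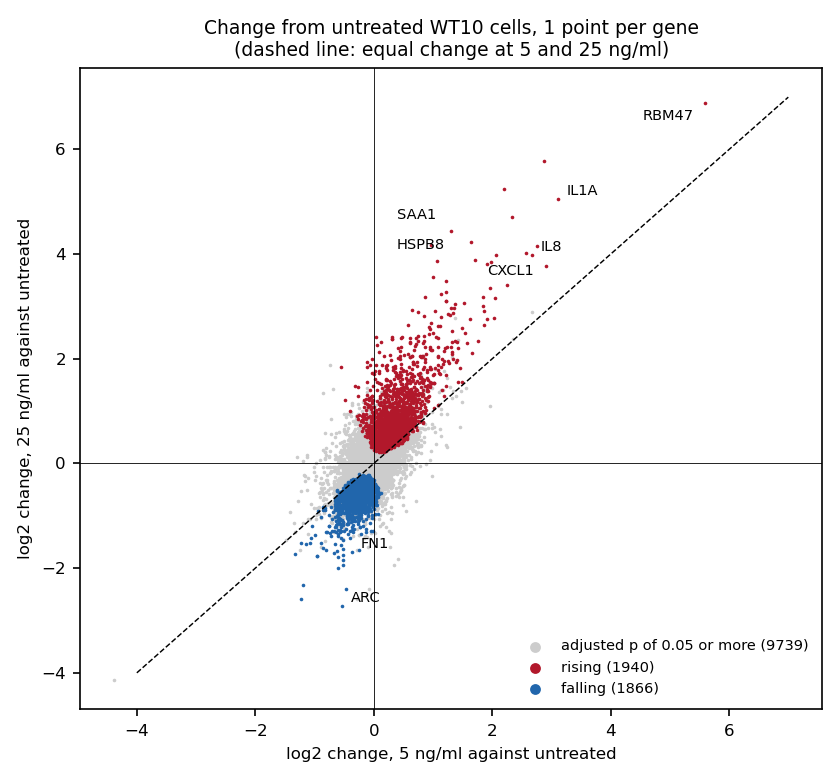
Log2 change at 25 ng/ml against log2 change at 5 ng/ml, both from untreated WT10 cells, for the 13545 tested genes, with rising genes in red, falling genes in blue and the rest in grey. On the dashed line the change at both concentrations is equal. RBM47 (5.59 at 5 and 6.88 at 25 ng/ml), IL8 (2.68 and 3.97) and SAA1 (1.31 and 4.44) all lie above it, and ARC (-0.53 and -2.73) lies below it.

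Among genes of the secretory and degradative compartments, those that rose far outnumbered those that fell, by small slopes. Of 37 proteasome subunits 17 rose and 0 fell (median slope 0.07), of 45 lysosomal genes 16 rose and 1 fell (0.07), and of 25 vesicle coat and SNARE genes 11 rose and 0 fell (0.06). PSMC2, an ATPase of the proteasome cap, had 2403, 2278, 2597, 2825 and 3558. ATP6V1G1, a subunit of the lysosomal proton pump, had 1878, 1950, 2108, 2474 and 3457, and NEU1, the lysosomal sialidase, had 1906, 1957, 2041, 2245 and 3622. ATP6V0A1 of the same pump stayed between 1229 and 1423 up to 5 ng/ml, stood at 2560 at 25 ng/ml, and did not pass without that library (slope 0.05, adjusted p = 0.243). SEC24D, a cargo adaptor of COPII vesicles, rose at every step from 1242 to 2343, and SAR1B, the GTPase that starts the coat, went from 898 to 1640. DNAJB9, a chaperone of the endoplasmic reticulum induced under secretory load, rose from 269 to 877, but it was 1 of only 4 rising genes among 21 in the unfolded protein response list, of which 7 rose and 3 fell without 25 ng/ml. When 25 ng/ml was left out, 15 of the 37 proteasome genes rose and 1 fell, 12 of the 45 lysosomal genes rose and 7 fell, and 13 of the 25 coat genes rose and 2 fell. With the trends subtracted, 29 lysosomal and 17 proteasome genes rose over 5 libraries, and 8 and 2 without 25 ng/ml.

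Cholesterol synthesis genes moved in both directions. Of 24 tested, 7 rose (29.2% against 14.3% of all genes) and 2 fell, and without 25 ng/ml 7 rose and 9 fell. MSMO1, a sterol demethylase, had 671, 681, 788, 939 and 1931, IDI1, an isomerase of the mevalonate pathway, had 1290, 1328, 1620, 1846 and 2865, and INSIG1, which retains the SREBP complex, had 1345, 1387, 1603, 2012 and 3207. HMGCS1, CYP51A1 and SC5DL were also among the risers, CYP51A1 losing its call without 25 ng/ml (slope 0.07, adjusted p = 0.059). SREBF2, a transcription factor of the pathway, was among those that fell. SLC2A1, the glucose transporter GLUT1, fell at every step with 11774, 10847, 9638, 8050 and 5070, 1 of 4 falling genes (14.8%, near the 13.8% of all genes) against 2 rising among 27 hypoxia and glycolysis genes, of which 13 fell and 1 rose without 25 ng/ml. Of 77 nuclear-encoded respiratory chain genes 17 rose (22.1%) and 0 fell, a split that did not hold in other fits: 14 rose and 15 fell without 25 ng/ml, 13 rose and 5 fell with the trends subtracted, and 2 rose and 15 fell with both.

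Many nuclear pore and splicing genes fell. Of 26 nuclear pore genes 13 fell, 1 rose and 12 did not pass, and of 33 SR and hnRNP splicing factors 12 fell (36.4%), 1 rose and 20 did not pass, against 13.8% falling of all genes. In the 4 libraries to 5 ng/ml 8 of the 26 fell and 3 rose, and 5 of the 33 fell and 3 rose. NUP210, a membrane nucleoporin, had 717, 646, 564, 469 and 276, and NUP188, of the inner ring, had 4500, 4205, 3911, 3484 and 2433. SRSF4, a splicing activator, had 2025, 1995, 1724, 1547 and 1363. HNRPDL stayed between 4921 and 5384 up to 5 ng/ml and was 2885 at 25 ng/ml, and did not pass without it (slope -0.04, adjusted p = 0.14). PTBP2, the neuronal polypyrimidine tract-binding protein, was the splicing factor that rose, with 219, 219, 293, 403 and 443, and nearly all of its change was present at 5 ng/ml. With the trends subtracted, 19 of 26 nuclear pore genes and 20 of 33 splicing factors fell. KHSRP, which promotes decay of AU-rich mRNAs, fell at every step from 10893 to 6703, and DCP2, the decapping enzyme, rose from 955 to 1588, in a list of 31 mRNA decay regulators with 4 rising and 8 falling (7 and 5 without 25 ng/ml).

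Apoptosis genes were again divided. Of 16 caspases and death receptors with HTATIP2, 6 rose and 1 fell, and without 25 ng/ml 4 rose and 0 fell. CASP4, an inflammatory caspase, had 986, 1005, 1099, 1295 and 1677. HTATIP2 had 842, 873, 949, 1400 and 3074, a slope of 0.44 (SE 0.04, adjusted p = 0.00027). Of 15 BCL2 family genes 4 rose and 2 fell, and without 25 ng/ml 2 rose and 4 fell. PMAIP1 (NOXA), a BH3-only activator of cell death, rose from 917 to 1621. BCL2, which protects from it, had 338, 370, 330, 313 and 190, and its call was lost without 1 ng/ml (slope -0.17, adjusted p = 0.0549) and without 25 ng/ml (-0.05, adjusted p = 0.435).

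Adhesion and matrix genes showed both directions. Of 15 integrin subunits 7 fell and 3 rose, and without 25 ng/ml 4 fell and 1 rose. ITGA2, a collagen receptor chain, had 3350, 3992, 3691, 3416 and 1973, and ITGB4, of hemidesmosomes, had 153, 184, 157, 136 and 355. Both rest on the highest concentration: without it ITGA2 had a slope of 0.0029 and ITGB4 of -0.07, the opposite sign to the 5-library slopes of -0.18 and 0.25, and both also lost the call without 1 ng/ml (adjusted p = 0.0768 and 0.0609). LAMB3, a chain of the basement membrane laminin bound by that integrin, stayed between 24388 and 27691 up to 5 ng/ml and was 63392 at 25 ng/ml. COL7A1, the collagen of anchoring fibrils, had 1154, 1092, 1179, 1334 and 2921. The slope of LAMB3 without 25 ng/ml was 0.03 (adjusted p = 0.266) and that of COL7A1 0.08 (adjusted p = 0.035). Of 33 collagens and laminins tested 9 rose (27.3%) and 5 fell (15.2%), and without 25 ng/ml 3 rose and 9 fell of 32. MMP1, interstitial collagenase, rose at every step with 4092, 4618, 5277, 6377 and 12925 (slope 0.37, SE 0.03). In its list of 19 matrix proteases and inhibitors 4 rose (21.1%) and 2 fell (10.5%), and without 25 ng/ml 2 rose and 3 fell. SPARC, a secreted matrix protein, rose from 1502 to 3214 while FN1 and TAGLN fell, so that the 17 mesenchymal genes tested held 3 rising and 5 falling.

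Some epithelial genes rose. Of 13 tested, 4 rose (30.8% against 14.3% of all genes), 0 fell and 9 did not pass: KRT8 (11288, 10676, 10123, 10753 and 16573), KRT18 (9183, 8663, 8692, 9440 and 15294), CLDN1 (105, 116, 116, 141 and 255) and CLDN7 (308, 294, 339, 346 and 604). None of the 4 passed without 25 ng/ml, where 0 rose and 1 fell of 14 epithelial genes tested and the slopes of the 4 were -0.04, 0.01, 0.15 and 0.08 with adjusted p of 0.173, 0.717, 0.112 and 0.202, and KRT8 also did not pass without 1 ng/ml (0.13, adjusted p = 0.0942). KRT8 and KRT18 are the keratin pair of simple epithelia and overlap in the annotation on opposite strands. CDH1, encoding E-cadherin, was below the level tested, with values of 1.08, 0.96, 1.00, 1.99 and 19.7.

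Mediators of brain metastasis named in earlier work on these lines were mixed, with 7 of 18 rising and 5 falling (5 and 4 without 25 ng/ml). SERPINB2, a plasminogen activator inhibitor, had 13858, 17795, 26578, 43946 and 60000, and its slope of 0.46 (SE 0.04) was 0.66 without 25 ng/ml. CTSS, the cathepsin that cleaves junction proteins, had 445, 629, 652, 845 and 1070. LTBP1, which anchors latent TGF-beta, had 498, 550, 543, 423 and 214 and was not called without 25 ng/ml (slope -0.07, adjusted p = 0.228). The TGF-beta list held 1 rising (5.0%) and 4 falling (20.0%) of 20, against 14.3% and 13.8% of all genes. Among those that fell were the inhibitors of differentiation ID1, from 1982 to 1140, and ID3, with 1256, 1041, 945, 811 and 556. YAP and TAZ targets had 2 rising and 7 falling of 18 (3 and 5 without 25 ng/ml), ANKRD1 going up from 6111 to 16190 and AMOTL2 down from 4851 to 2575. Of 16 MAPK feedback genes 3 rose and 6 fell (2 and 5 without 25 ng/ml), DUSP10 rising at every step from 223 to 596. EGFR, 1 of 2 falling genes against 3 rising in the 9 ERBB genes tested (1 and 2 without 25 ng/ml), had 4011, 4694, 4513, 4022 and 2812, with a slope of 0.0011 (adjusted p = 0.982) without 25 ng/ml and -0.11 (adjusted p = 0.113) without 1 ng/ml.

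Several large lists held a share of called genes near or under that of all genes in the fit over 5 libraries. Of 75 cytosolic ribosomal protein genes 6 rose (8.0%) and 5 fell (6.67%), of 76 mitochondrial ribosomal genes 8 rose (10.5%) and 6 fell (7.89%), and of 37 translation factors 1 rose (2.70%) and 5 fell (13.5%). Other fits gave other counts, in which both ribosomal lists had a larger falling share than all genes. The shares of all genes falling were 18.2% without 25 ng/ml and 20.9% with the trends subtracted. Over 0 to 5 ng/ml 10 cytosolic ribosomal genes rose and 26 fell, 8 mitochondrial ones rose and 17 fell, and 10 translation factors rose and 7 fell. With the trends subtracted, 3 cytosolic ribosomal genes rose and 25 fell, and 9 mitochondrial ones rose and 22 fell. The 452 ZNF genes held 65 rising (14.4%) and 40 falling (8.85%), and without 25 ng/ml 52 and 51 of 451. Of 20 replication-dependent histone genes, whose mRNAs lack poly(A) tails while the libraries were poly(A)-selected, 2 rose and 1 fell, and without 25 ng/ml 0 rose and 6 fell of 19. Of 8 tested relatives of RBM47 and APOBEC genes 2 rose and 3 fell (0 and 1 without 25 ng/ml), and APOBEC1 itself was below the level tested. MALAT1, a nuclear long noncoding RNA, had 2482, 3713, 3535, 4581 and 10612 (slope 0.44, SE 0.04, adjusted p = 0.000122), in a list of 14 nuclear RNAs with 3 rising and 1 falling.

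**Figure D3:**
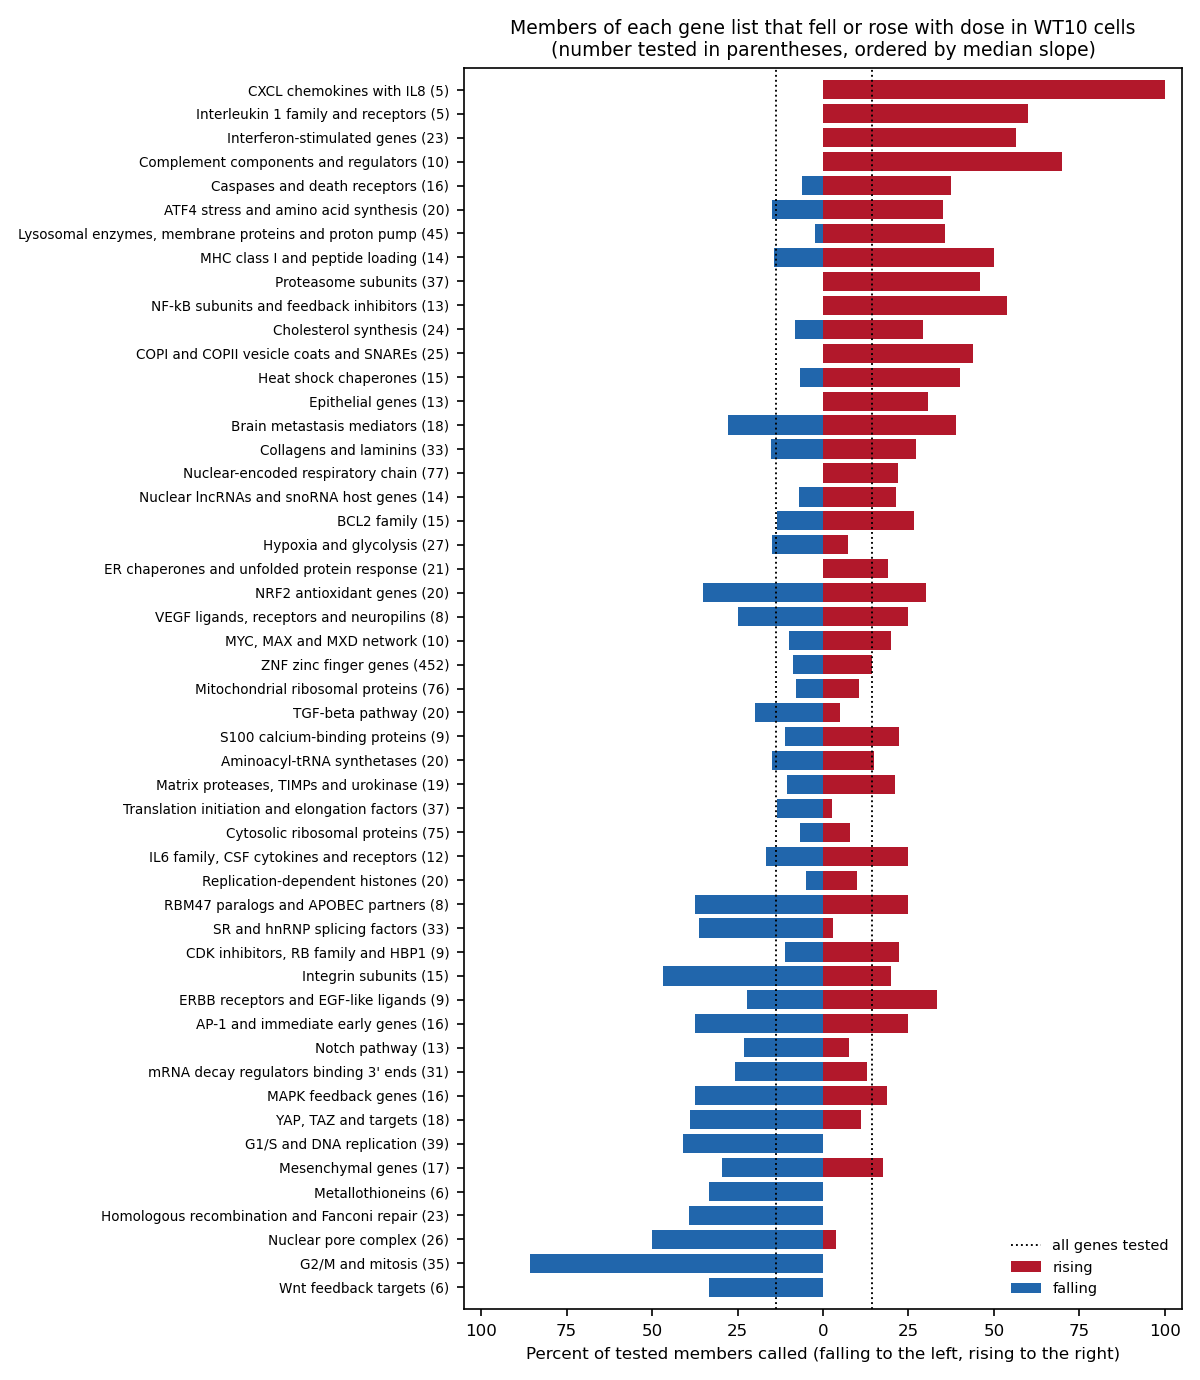
Percent of the tested members of each gene list that rose (red, to the right) or fell (blue, to the left) with doxycycline in WT10, for lists with at least 5 tested members, ordered by median slope with the number tested in parentheses. Dotted lines mark the shares over all genes, 14.3% rising and 13.8% falling. The CXCL chemokines (5 of 5 rising) and the G2/M genes (30 of 35 falling) reach farthest from them.

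How much of the response rests on 25 ng/ml can be read in several ways. On the dose scale, without precision weights, that library has a leverage of 76.8% on its own fitted value and the untreated one 52.2%. The libraries between them have 20.4% to 28.2%, so the 2 end points weigh most in each line. These percentages are not shares of the slope. The step from 5 to 25 ng/ml was the largest of the 4 in 1366 of 1940 rising and 1273 of 1866 falling genes. The median rising gene had 44.5% of its 25 ng/ml change at 5 ng/ml (quartiles 24.6% and 63.5%), and the median falling gene had 50.7% (30.7% and 68.5%). These genes were called for a straight line over the same 5 libraries. On that line 5 ng/ml lies 2.58 of the 4.70 units from untreated. The shares, the steps and the signs kept without 25 ng/ml therefore follow in part from the selection. All 4 steps went in the direction of the call in 774 rising and 1010 falling genes. When the 25 ng/ml library was left out, 1737 of the rising genes kept a positive slope, 153 had a negative one and 50 no longer had a mean of 10, and 1809 of the falling genes kept a negative slope and 57 did not.

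The calls without 25 ng/ml depended on the model. The same fit on 4 libraries called 1816 rising (13.5%) and 2457 falling (18.2%) of 13467 genes, which is not fewer than with 5 libraries, but only in part the same genes: 890 rising and 1148 falling genes were called the same way in both, 998 and 718 were lost, 2 rising genes were called falling, and 926 rising and 1307 falling were called only without 25 ng/ml. That fit has 2 residual degrees of freedom, and the count differed with the way the variance was modelled. Without precision weights 1 gene rose and 0 fell (4281 had an unadjusted p under 0.05), while edgeR on recovered reads called 2399 and 2212. No statement on the number of genes that move below 25 ng/ml is therefore firm. The calls of single genes without 25 ng/ml come from the same fit and share this limit.

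Part of the change at 1 to 5 ng/ml followed base composition. When genes were divided into 5 groups of equal size by the GC content of their longest transcript, the median log2 change at 5 ng/ml was 0.20 in the lowest group and -0.25 in the highest, and at 25 ng/ml it was 0.07 and -0.06. Without 25 ng/ml, 37.2% of the lowest GC group were called rising and 0.542% falling, and in the highest group 0.697% rising and 49.3% falling. Over transcript length the median change ran from -0.07 in the shortest group to 0.04 in the longest at 5 ng/ml, and from 0.07 to -0.07 at 25 ng/ml. A like gradient was in MUT3 at 5 ng/ml (0.09 to -0.09) and an opposite one in WT6 at 25 ng/ml (-0.23 to 0.29). With both trends subtracted, 2583 rising (20.0%) and 2698 falling (20.9%) genes of 12921 were called over 5 libraries, and 706 (5.51%) and 1048 (8.17%) of 12824 without 25 ng/ml. Of the 1940 rising genes 1743 were called the same way after subtraction, as were 1704 of the 1866 falling, and 507 and 669 were called in both subtracted fits.

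**Figure D4:**
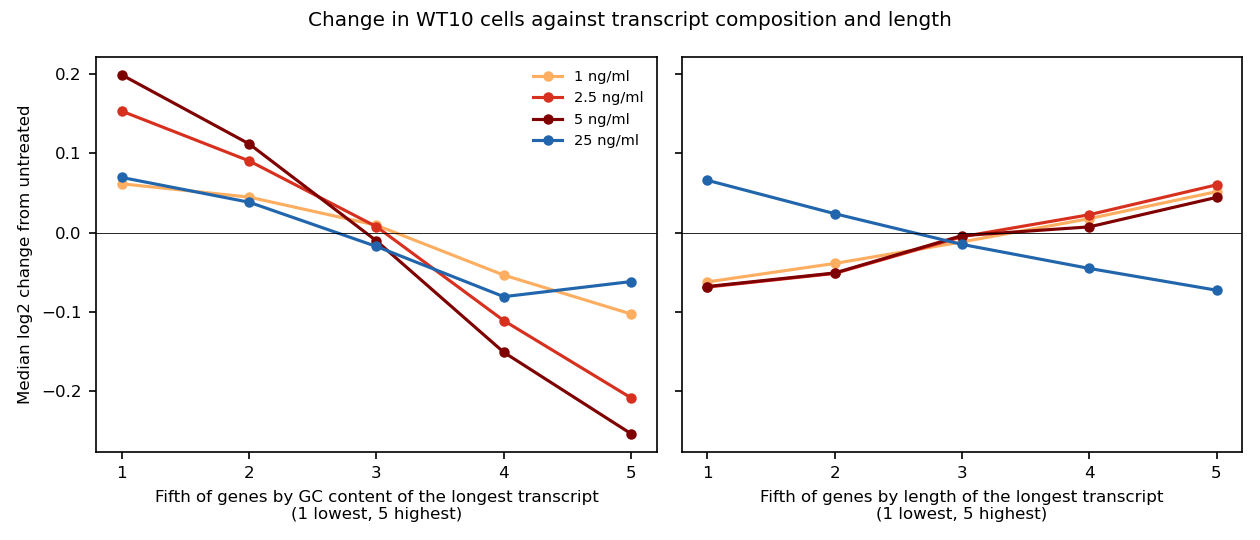
Median log2 change from untreated WT10 cells at each concentration (colours) in 5 equal groups of the tested genes by GC content (left) and by length (right) of the longest transcript, from lowest (1) to highest (5). At 1, 2.5 and 5 ng/ml the median declines with GC content, from 0.20 to -0.25 at 5 ng/ml, and the 25 ng/ml line is nearly flat, from 0.07 to -0.06.

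Genes differed in where along the series they moved. Among genes called over 5 libraries with an unadjusted p under 0.05 without 25 ng/ml, the 6 with the largest rise by 5 ng/ml were RBM47, IL1A, CDR1, CSF3, IL8 and IL1B. CDR1, a transcript from a locus that also gives a circular RNA on the other strand, went from 2 reads (2.16) to 20.3 at 1 ng/ml and then 25.9, 22.6 and 42.5. Among the falling genes the largest changes by 5 ng/ml were in genes of low count, such as ITIH4 (23.8, 13.5, 4.99, 9.54 and 3.11) and CILP2 (56.3, 44.4, 40.9, 25.0 and 18.7), and ITIH4 was not called without 1 ng/ml (slope -0.55, adjusted p = 0.0529). Of more abundant genes, HIST1H1C, a linker histone, had 2947, 2154, 2085, 1667 and 1642, so that almost none of its fall came after 5 ng/ml.

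Other genes did not move until 25 ng/ml. BLVRB, biliverdin reductase B, stayed between 489 and 590 up to 5 ng/ml and reached 1956, 3.32 times its 5 ng/ml value. IGFN1 stayed between 173 and 197 and reached 634, C10orf54, which encodes the checkpoint protein VISTA, between 79.8 and 93.6 and reached 275, and LDLRAD2 between 413 and 515 and reached 1314. In the other direction EDIL3, a secreted integrin ligand, stayed between 399 and 465 and dropped to 168, SLAIN1, a microtubule-tip protein, between 229 and 253 and dropped to 101, and MYLIP, a ubiquitin ligase, between 292 and 338 and dropped to 134. SLC7A2, a cationic amino acid transporter, had 869, 837, 840, 850 and 421, and MFSD2A, a lysolipid transporter, had 266, 266, 260, 235 and 116. None of these 9 was called without 25 ng/ml, where their slopes lay between -0.06 and 0.05. EDIL3 (adjusted p = 0.0609) and SLC7A2 (0.0502) were also not called without 1 ng/ml. These genes were chosen for being flat up to 5 ng/ml, so the pattern is a description.

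MUT3 had the same doxycycline and carried the truncated cDNA, whose protein the study describes as low in level, and IL1A, CXCL1 and MALAT1 had the largest positive differences named by the rule. For MALAT1 the difference was larger than its WT10 slope, its slope in MUT3 being negative. In a fit of all 15 libraries and 12644 genes, 711 slopes (5.62%) differed between WT10 and MUT3, 336 higher (2.66%) and 375 lower (2.97%) in WT10, and 0 genes had a MUT3 slope past the threshold (295 at an unadjusted p under 0.05). RBM47, the induced gene, was itself among those not called in MUT3. The 0 therefore does not show that no gene moved there. IL1A in MUT3 had 81.3, 104, 105, 138 and 196, and the slope difference was 0.89 (SE 0.13, adjusted p = 0.00415). IL8 in MUT3 had 294, 406, 303, 377 and 420 (difference 0.81, SE 0.09, adjusted p = 0.00258). DKK1 in MUT3 had 5945, 5698, 5550, 5899 and 5862 (difference 0.41, SE 0.05, adjusted p = 0.00261). WNT7B, FN1, CENPF and MKI67 also differed, their slopes in WT10 being lower by 0.43, 0.37, 0.24 and 0.19. Of the 35 G2/M genes, 14 had a lower slope in WT10 and 0 a higher one. The count of 711 rests on single libraries: it was 0 without the 1 ng/ml libraries, 0 without the 25 ng/ml libraries, 110 without the untreated ones, 346 without 2.5 ng/ml and 1913 without 5 ng/ml.

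Between the 2 clones with wild type RBM47, 1817 slopes (14.4%) differed, 897 higher (7.09%) and 920 lower (7.28%) in WT10. The mitotic genes fell less steeply in WT10: 16 of 35 had a higher slope than in WT6 and 0 a lower one, with median slopes of -0.13 and -0.24. MKI67 in WT6 had 13326, 12128, 10002, 6300 and 4592. Several genes moved in opposite directions. ARC had a slope of -0.47 in WT10 and 0.56 in WT6, where its counts were 47.1, 80.3, 135, 163 and 340, and TAGLN had -0.28 and 0.16. IL7R had slopes of 0.62 and -0.19, a difference of 0.81 (SE 0.15, adjusted p = 0.011), and ICAM1 and TNFAIP3 were steeper in WT10 by 0.46 and 0.34. IL8, CXCL1 and DKK1 had slopes of 0.75, 1.01 and 0.36 in WT6, and their slope differences of 0.14, -0.07 and 0.05 did not pass. This count too depends on single libraries, being 5 without the untreated libraries, 4 without 1 ng/ml, 2 without 25 ng/ml and 3079 without 5 ng/ml. By the study's methods the clones come from different lines, so line, clone and dose response cannot be told apart.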

How the data were processed

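Poly(A) RNA from clones WT10, MUT3 and WT6 was sequenced at 5 doxycycline concentrations, and the 5 WT10 libraries were taken by their labels. By the study's methods and the submitters' processing notes, the authors aligned paired reads with STAR to hg19, counted them on genes with HTSeq (0.5.4) at its default settings, which count reads on the strand of the gene, and deposited a signal per gene, a read count divided by DESeq library size factors; the annotation, and whether the library preparation kept strand, are not given in the sources used here. The table holds 23368 genes and 5 tallies of reads not assigned to a gene, which were left out of the tests. Low values were whole multiples of 1 read within 0.01 reads, which gave back each library's reads; for 2.5 ng/ml this rests on a separate check made here.

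Since the deposited values are normalized, limma (3.58.1, R 4.3.3) with precision weights (vooma) and moderated variances was fitted to log2(value + 1) on log2(dose + 1) for genes with a mean of at least 10, with Benjamini-Hochberg adjustment over all tested genes and a threshold of 0.05. The fit has 3 residual degrees of freedom, 2 without 25 ng/ml, and 9 for clone differences fitted on 15 libraries. A fold on the log2(value + 1) scale understates changes of low genes. The spread is that between single libraries, nothing says that they are separate cultures, and floors of 3 reads cover counting error only. edgeR (4.0.16) and DESeq2 (1.42.0) on recovered reads were alternatives. Trends were natural splines of log2 transcript length and GC content (GENCODE release 44 on GRCh37; 92.0% of genes matched by symbol), subtracted from each library's deviation from its clone's mean. Scripts were tested on simulated data, and tables were handled with pandas (2.3.3) and numpy (2.4.6).

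The members and gene lists were chosen with earlier results of these data known. Named genes are RBM47, the 12 steepest slopes in each direction with a mean of at least 100, up to 4 called members of a list by slope, 6 genes in each direction that moved most by 5 ng/ml, 6 in each direction that moved from 5 to 25 ng/ml while within 0.2 log2 units of untreated at 5 ng/ml, and 3 differences in each direction from each other clone. The promoter motif, further clone differences, and members named to illustrate or complete a count (such as CXCL16, NFKBIA, TAP2, NLRC5, PSMC2, SPARC and KHSRP) were chosen after their values were seen. Some genes are not reported here. SAA1 and SAA2, the CXCL, OAS and HLA genes are close paralogs that may share reads.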

Additional observations from a re-analysis of the deposited data

Results flagged for a closer look

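Slopes differed between WT10 and MUT3 in 711 genes, by the test of the difference in the 15-library fit with limma. Positive values mean a higher slope in WT10, through a steeper rise there, a fall in MUT3 or both. IL1A (0.89), CXCL1 (0.88) and MALAT1 (0.85) had the largest positive differences, and SEMA3B (-0.37) and FN1 (-0.37) were among the largest negative ones, chosen by the rule for named genes, which asks for a mean of at least 100 in each clone. The other differences were singled out after their values were seen. They are IL8 (0.81), IL1B (0.72), SAA1 (1.03), ICAM1 (0.45), DKK1 (0.41), HTATIP2 (0.41), MMP1 (0.47) and HBP1 (0.20) above 0, and WNT7B (-0.43), IGFBP3 (-0.32), CENPF (-0.24) and MKI67 (-0.19) below it. The adjusted p of SAA1 was 0.0388 and that of MKI67 0.0467. Since 0 of the 711 differences are called without the 1 ng/ml or without the 25 ng/ml libraries, each of these calls rests on both.

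Slopes differed between WT10 and WT6 in 1817 genes by the same test. The rule chose GAS2L3 (0.66) and BMPER (0.59) above 0 and FBXO32 (-0.53), TRIML2 (-0.52) and LMCD1 (-0.49) below it. Singled out after their values were seen were IL1B (0.43), ICAM1 (0.46), IL7R (0.81), TNFAIP3 (0.34), CENPF (0.24), MKI67 (0.17), NUP210 (0.31), EGFR (0.37) and COL7A1 (0.41) above 0, and ARC (-1.03) and TAGLN (-0.45) below it. The WT10 slopes of GAS2L3 (-0.0040, adjusted p = 0.966) and BMPER (0.17, adjusted p = 0.0735) were not called without 25 ng/ml, nor was GAS2L3 without 1 ng/ml (-0.19, adjusted p = 0.0921).

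Reads on no gene made up a larger share of tallied reads in each treated WT10 library than in untreated cells, where the share was 56.6%. In ascending order of concentration the treated libraries had 57.2%, 57.1%, 57.6% and 58.7%. Ambiguous reads went the other way, from 0.604% in untreated cells to between 0.582% and 0.592% in the treated libraries. Neither difference has a test, with 1 library at each concentration.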

How the results depend on the processing

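The counts of 1940 rising and 1866 falling genes became 1284 and 1243 with 15 libraries in one fit, 1238 and 1184 without precision weights, 1147 and 1199 on the rank of the dose, 567 and 700 on the log2 RBM47 value, 1165 and 665 by a Pearson correlation with the dose at an unadjusted p under 0.01, and 0 and 0 for any doxycycline against none. Leaving out each library in turn gave 1005 to 2426 rising and 830 to 2457 falling genes, the lowest of both without 1 ng/ml. The counts without 25 ng/ml, 1816 and 2457, became 1 and 0 without precision weights, 706 and 1048 with the length and GC trends removed, and 14 and 3 in the fit with all clones, alternatives chosen after seeing the data. The 711 differences from MUT3 became 467 without precision weights, 204 on the linear dose, 260 on its rank and 1976 with the trends removed, and ranged from 0 to 1913 with a concentration left out. The 1817 differences from WT6 became 1198 without precision weights and 222 on the linear dose, and ranged from 2 to 3079. Genes over 1 log2 unit from untreated at 1, 2.5, 5 and 25 ng/ml numbered 112, 133, 155 and 847, against 10, 14, 51 and 550 with a pseudocount of 10 and 5, 10, 34 and 409 with a mean of at least 50, so that at low concentrations most were genes of low count. For these counts, apart from the fewer libraries or genes entering a fit, the cause was not tested.

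Of 3082 values of 148 named slopes, 2700 kept direction and side of the threshold, 371 lost the threshold, 5 gained it and 6 reversed. The reversed slopes without 25 ng/ml were, as ranges over the fits with each library left out, ITGB4 (-0.0705 to 0.322), KRT8 (-0.0358 to 0.193), EGFR (-0.207 to 0.0011), LDLRAD2 (-0.0052 to 0.477) and ITGA2 (-0.280 to 0.0029), and LMCD1 (0.0557) reversed for any doxycycline against none. Without 25 ng/ml a further 44 of 147 slopes lost the threshold, and without 1 ng/ml 19 of 148 did. Of 1154 values of 55 list medians, 1069 were held to be the same. The rule was a move of at most the median SE. Where another predictor replaced log2(dose + 1), only the sign was compared. Without 25 ng/ml 31 of 55 list medians moved by more than that SE, and without untreated cells 17 of 55 did. No analysis paired across clones by concentration was run. Each clone has 1 library per concentration, and the titles link libraries only by clone and concentration. Genes under the 3-read floor of 1.19 to 3.25 allow no fold.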
